A study of Mus musculus with 6 samples.

Results

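Interferon-stimulated genes (ISGs) were examined in RNA-seq of cultured mouse cortical neurons. The 9 genes Stat2, Irf7, Irf9, Isg15, Ifit1, Ifit3, Bst2, Usp18 and Oasl2 were taken by name from a count table of 55367 genes. All 9 were present in it and all 9 passed the filter on low counts, as did 16976 genes in all, so none had too few counts to compare. The cells came from the cerebral cortex of C57BL/6J pups at postnatal day 1 and were kept for 2 days in vitro without any further treatment. There were 3 wild-type (WT) libraries and 3 libraries from Fmr1-knockout (Fmr1-KO) pups. The study describes this mouse as lacking the fragile X protein FMRP. The study asked whether nonsense-mediated mRNA decay is overactive in mouse cells that lack FMRP, and ISGs were not its subject. It describes the samples as independently derived, but the labels name no litter, culture or sex. P values here set the genotype difference against variation between these libraries, whichever animals or cultures they came from.

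Type I interferons are secreted proteins that warn cells of infection. They bind the IFNAR1 and IFNAR2 receptor chains, the kinases JAK1 and TYK2 phosphorylate STAT proteins, among them STAT2, which joins IRF9 in a complex called ISGF3. ISGF3 binds the interferon-stimulated response element (ISRE) in promoters and switches on antiviral genes, among them Irf7, which amplifies the response. In the brain, microglia, the resident macrophages, are strong responders, and neurons and astrocytes also express many ISGs at a low resting level.

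The promoters of 5 of the 9 genes are shown because they hold the ISRE core that defines this family of targets. The core was searched as GAAANNGAAA on both strands of windows that run from 250 bases before to 50 bases after each RefSeq start site (GRCm38.p6). Of the 9 genes, 8 matched that table, all but Usp18, with 9 windows in total. The core was found in 5 of the 9 windows (55.6%), against 3.44% of all 32851 windows. A second motif of interferon signalling, the gamma-activated sequence TTCNNNGAA, was found in 1 of the 9 windows, that of Bst2, against 8.30% of all windows, and its letters overlap the first ISRE core of that gene. The stretches around the ISRE cores are printed 5′ to 3′ along the strand of the gene, with the fixed letters of each match in capitals. All lie before the start site.
Stat2 (chr10:128270261-128270300, plus strand): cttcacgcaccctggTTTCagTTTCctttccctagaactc
Isg15 (chr4:156200860-156200911, minus strand): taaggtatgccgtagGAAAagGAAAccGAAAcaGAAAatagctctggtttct
Ifit1 (chr19:34640770-34640828, plus strand): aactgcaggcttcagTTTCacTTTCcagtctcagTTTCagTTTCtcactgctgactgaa
Ifit3 (chr19:34583358-34583431, plus strand): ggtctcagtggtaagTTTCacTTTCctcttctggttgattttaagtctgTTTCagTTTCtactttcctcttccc
Bst2 (chr8:71537572-71537617, minus strand): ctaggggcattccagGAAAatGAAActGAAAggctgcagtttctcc

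Isg15 held 3 overlapping matches, which begin 78, 72 and 66 bases before the start site. Ifit1 held 2, at 104 and 85 bases, and Ifit3 held 2, at 156 and 122 bases. The 2 matches of Bst2 overlap and begin at 130 and 124 bases, and the single match of Stat2 begins at 222 bases. These letters were not found in the windows of Irf7, Irf9 and Oasl2. Among 53 windows of other antiviral effector genes, 43.4% held the core.

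The targeted gene, Fmr1, had 4113, 3710 and 3656 counts in WT replicates 1, 2 and 3 and 1761, 1879 and 1972 counts in the Fmr1-KO replicates, which is on the side that the labels require (log2 fold-change -0.98, adjusted P 2.25e-13 by edgeR). Fmr1 RNA in Fmr1-KO was still at 50.6% of the WT level, and these counts do not measure the protein. Library totals lay between 30348556 and 35126207 counts. The genotypes also differed in Xist, the X-inactivation RNA of female cells, at 305.5 ± 7.34 CPM (counts scaled to 1e6 per library) in WT and 915.7 ± 96.4 CPM in Fmr1-KO (SD, n = 3 each), so that genotype and any difference in the sex of the pups cannot be told apart. Neuronal markers summed to between 4222 and 5274 CPM over the 6 libraries and astrocyte markers to between 4691 and 5422 CPM, although, by the study's methods, ACSA2+ astrocytes and myelin had been removed with antibody-coated beads before plating. Of the neuronal markers 11 of 12 were called lower in Fmr1-KO, and all 10 oligodendrocyte lineage markers were lower and all 10 proliferation markers higher. Over all tested genes, 21.9% were called lower and 20.7% higher. Within the Fmr1-KO group, replicate 2 stood apart for the ISGs: it was the highest of the 3 libraries for all 9 genes. For the 9 genes, the fold-changes without it are given as well. Since it was the highest for all 9, leaving it out must lower each fold-change, so that direction is no evidence of a genotype difference.

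The 9 genes were expressed at a low to moderate level. Counts in a single library ran from 110 for Isg15 to 1779 for Stat2. Per kilobase of exon, using GENCODE M21 exons, Bst2 was highest in WT at 24.9 ± 2.38 CPM per kilobase (SD, n = 3). The length joined the exons of all annotated transcripts of a gene. For Irf7 it was 3776 bases, the whole span of the gene, so the order of genes per kilobase depends on the annotation. Stat2 (7.90), Isg15 (7.66) and Irf9 (6.57) followed in WT, and the ranges of neighbours among these 3 overlapped. Oasl2 (3.83), Ifit3 (3.21), Irf7 (2.98), Usp18 (2.90) and Ifit1 (2.47 CPM per kilobase) made up the lowest group in WT, where each overlapped its neighbour. Between these groups, Bst2 did not overlap Stat2, nor Irf9 Oasl2. The order in Fmr1-KO was the same for the upper 4 genes, while Oasl2 stood below Ifit3 and Irf7 below Usp18, in both cases with overlapping ranges.

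None of the 9 genes was called higher in Fmr1-KO, and 3 were called lower: Oasl2, Irf7 and Irf9. Calls required an adjusted P under 0.05 in the quasi-likelihood test of edgeR, adjusted over all tested genes after Benjamini and Hochberg. The called share, 3 of 9 lower and 0 of 9 higher, is read against backgrounds of 21.9% of all tested genes called lower and 20.7% called higher. At an unadjusted P under 0.05 edgeR also gave 3 lower and 0 higher, and DESeq2 called 2 lower and 0 higher. The log2 fold-change was below 0 for 8 of the 9 genes (48.7% of all tested genes), with a median of -0.14 against 0.01 over all genes. Single libraries moved that median: leaving out replicate 2 of Fmr1-KO gave -0.28 and of WT -0.23, whereas leaving out Fmr1-KO replicate 1 gave -0.03 and WT replicate 3 gave -0.07. The number of genes below 0 was 9 without Fmr1-KO replicate 2 and 6 without Fmr1-KO replicate 1, Fmr1-KO replicate 3 or WT replicate 3. The number called lower was 1 (Oasl2) without WT replicate 1 or without Fmr1-KO replicate 3. It was 5 without Fmr1-KO replicate 2, when Isg15 and Ifit1 joined the 3. That library was the highest Fmr1-KO library for all 9 genes, so this rise was fixed in direction and is no support. In Oasl2, Irf7 and Irf9, and in no other of the 9, the groups did not overlap, all with Fmr1-KO below WT. This was the case for 26.3% of all tested genes (25.4% with Fmr1-KO above).

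**Figure D1:**
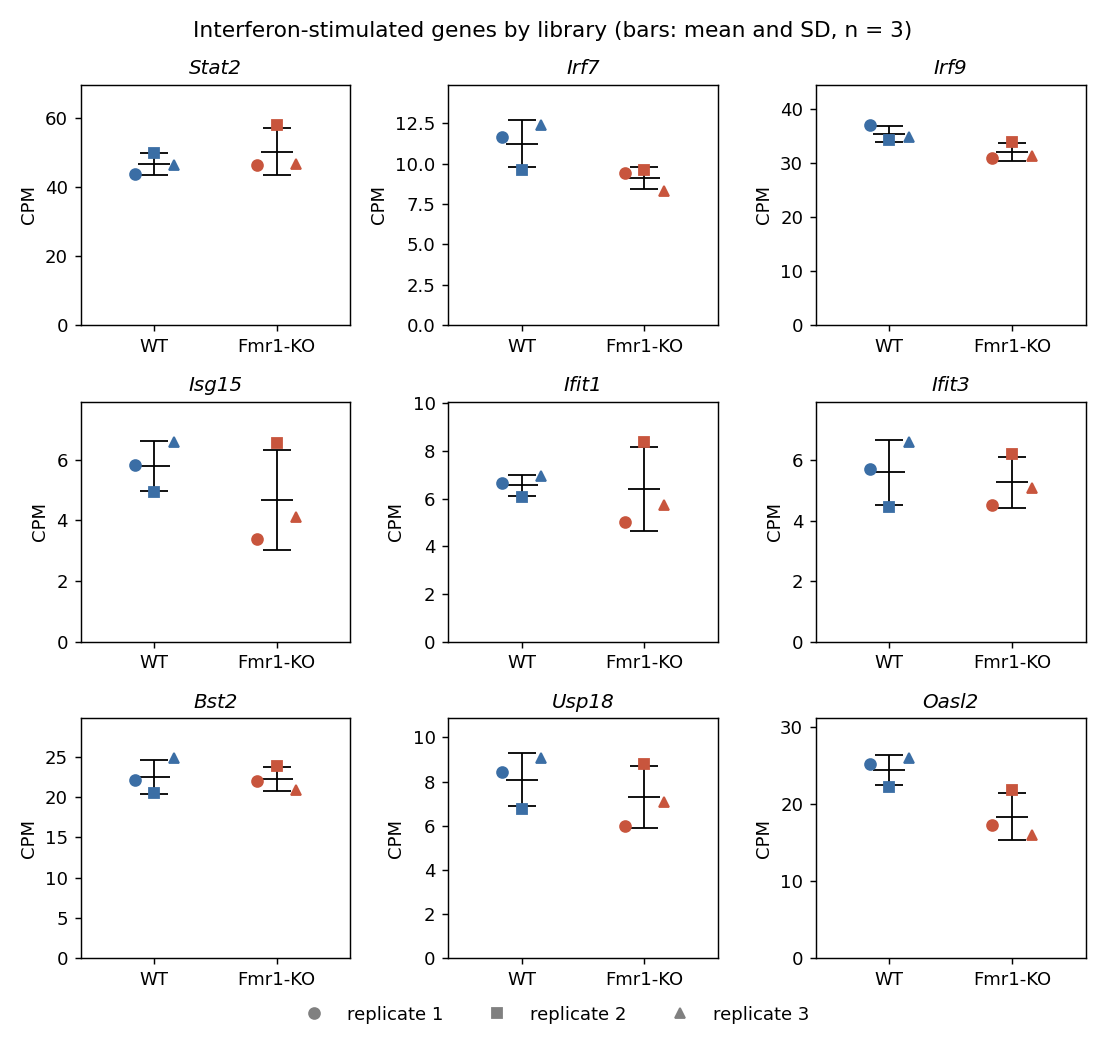
Level of each of the 9 genes in CPM (y axis from 0) in the 3 WT and 3 Fmr1-KO libraries, with symbols for replicate number and bars for the mean and SD. Fmr1-KO replicate 2 (square) is the highest Fmr1-KO library in all 9 panels, and only in the panels of Irf7, Irf9 and Oasl2 do all Fmr1-KO libraries lie below all WT libraries at this TMM scaling.

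Of the 3 genes of transcriptional control, Irf9 and Irf7 were called lower and Stat2 was not called. Irf9 encodes the DNA-binding subunit of ISGF3 and lies on the plus strand of chromosome 14 from 55603571 to 55610030 (GRCm38). It measured 37.1, 34.2 and 34.8 CPM in WT replicates 1, 2 and 3 and 31.03, 33.9 and 31.3 CPM in the Fmr1-KO replicates. The genotypes did not overlap, although Fmr1-KO replicate 2 came close to the lowest WT library, and they did overlap when library totals or upper-quartile factors were used for scaling. The level fell by 9.41%, a log2 fold-change of -0.14 (SE 0.05; 95% interval -0.25 to -0.04; adjusted P 0.028 by edgeR). DESeq2 did not call it (adjusted P 0.0625), nor did edgeR when scaling by library totals (-0.11) or when WT replicate 1 (-0.11), Fmr1-KO replicate 1 (-0.12) or Fmr1-KO replicate 3 (-0.13) was left out. It was -0.18 with Fmr1-KO replicate 2 left out. Exons of Rnf31 overlap 2.28% of the exon bases of Irf9 on the same strand.

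Irf7, the transcription factor that amplifies interferon production, lies on the minus strand of chromosome 7 from 141262706 to 141266481. Its level was 11.7, 9.62 and 12.4 CPM in WT and 9.41, 9.60 and 8.34 CPM in Fmr1-KO. The highest Fmr1-KO library was just below the lowest WT library, and that separation was lost under the same scalings as for Irf9. Its level fell by 19.0%, with a log2 fold-change of -0.30 (SE 0.09; 95% interval -0.50 to -0.11; adjusted P 0.0111 by edgeR). It did not pass the threshold without WT replicate 1 (-0.28, adjusted P 0.0505 by edgeR), WT replicate 3 (-0.23, 0.0723) or Fmr1-KO replicate 3 (-0.24, 0.0673), and with Fmr1-KO replicate 2 left out it was -0.34.

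Stat2, which encodes the STAT partner of IRF9 in ISGF3, lies on chromosome 10 from 128270559 to 128292849 on the plus strand. It measured 43.8, 50.1 and 46.6 CPM in WT and 46.4, 58.1 and 46.7 CPM in Fmr1-KO. Only Fmr1-KO replicate 2 exceeded all WT libraries. The log2 fold-change was 0.10 (95% interval -0.04 to 0.24; adjusted P 0.226 by edgeR) and became -0.0092 without Fmr1-KO replicate 2. The genotypes therefore did not differ detectably in Stat2 beyond the spread of replicates, within the bounds of that interval.

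Oasl2 showed the largest change of the 9 genes that passed the test. It encodes a relative of the 2′-5′ oligoadenylate synthetases, enzymes that sense double-stranded RNA, and lies on the plus strand of chromosome 5 from 114896936 to 114912234. Oasl2 measured 25.1, 22.2 and 25.9 CPM in WT and 17.3, 21.8 and 16.0 CPM in Fmr1-KO. Fmr1-KO replicates 1 and 3 were clearly below WT, and replicate 2 was close to the lowest WT library, which it just exceeded when scaled by library totals. The mean was 24.4 ± 1.96 CPM in WT and 18.4 ± 3.04 CPM in Fmr1-KO (SD, n = 3 each), a decrease of 25.1%. The log2 fold-change was -0.42 (SE 0.09; 95% interval -0.59 to -0.24; adjusted P 0.000431 by edgeR). Of the 9 genes, Oasl2 alone was called under all 13 alternatives, with log2 fold-changes from -0.55 without Fmr1-KO replicate 2 to -0.32 without Fmr1-KO replicate 3.

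**Figure D2:**
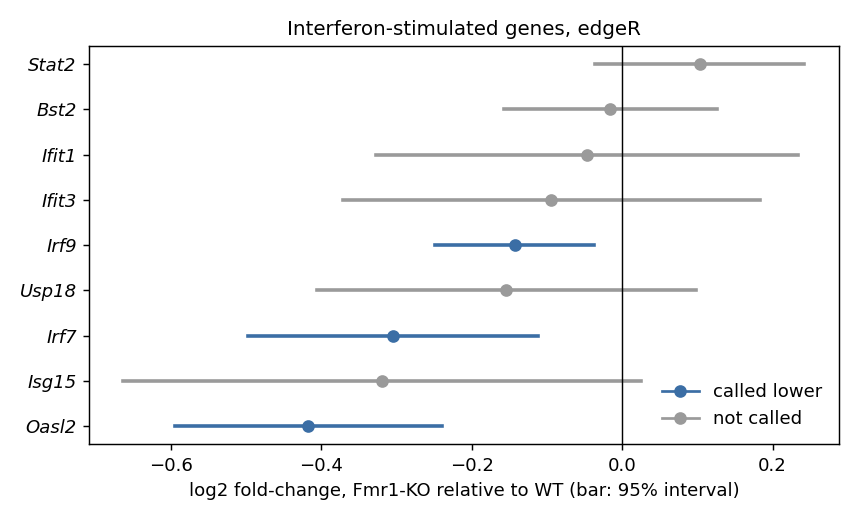
Log2 fold-change in Fmr1-KO relative to WT (x axis) of the 9 genes by edgeR, with 95% intervals; blue marks genes called lower and grey genes not called. The intervals of Oasl2, Irf7 and Irf9 lie below 0, and that of Isg15 is the widest, from -0.66 to 0.02.

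Isg15 and Usp18 encode opposite arms of a protein modification. Isg15 encodes a ubiquitin-like protein that is joined to other proteins, and Usp18 encodes the protease that removes it and also restrains signalling at the receptor. Isg15, on the minus strand of chromosome 4 from 156199424 to 156200818, measured 5.84, 4.93 and 6.59 CPM in WT and 3.38, 6.53 and 4.11 CPM in Fmr1-KO. Fmr1-KO replicate 2 was as high as the upper WT libraries, and the other 2 Fmr1-KO libraries were below all of WT. Its log2 fold-change of -0.32 (SE 0.16; 95% interval -0.66 to 0.02) did not pass (adjusted P 0.129 by edgeR). When Fmr1-KO replicate 2 was left out it was -0.62 (adjusted P 0.00123 by edgeR), and when Fmr1-KO replicate 1 was left out, -0.14 (0.537). With no filter on low counts the adjusted P of Isg15 was 0.0163 by edgeR at nearly the same fold change (-0.32).

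Usp18, on the plus strand of chromosome 6 from 121245906 to 121270917, measured 8.46, 6.74 and 9.05 CPM in WT and 6.00, 8.79 and 7.10 CPM in Fmr1-KO. The genotypes overlapped: Fmr1-KO replicate 2 lay within the WT range, as did Fmr1-KO replicate 3. The fitted log2 fold-change came to -0.15 (95% interval -0.41 to 0.10; adjusted P 0.33 by edgeR) and ran from -0.30 without Fmr1-KO replicate 2 to -0.03 without Fmr1-KO replicate 1.

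Ifit1 encodes an RNA-binding protein that blocks translation of viral RNA, and lies with its relative Ifit3 in a cluster on chromosome 19. Ifit1, from 34640871 to 34650009 on the plus strand, measured 6.67, 6.08 and 6.95 CPM in WT and 5.04, 8.40 and 5.75 CPM in Fmr1-KO. The Fmr1-KO libraries lay on both sides of the WT range, with an SD of 1.77 CPM against 0.446 CPM in WT. The log2 fold-change was -0.05 (95% interval -0.33 to 0.23; adjusted P 0.812 by edgeR). Without Fmr1-KO replicate 2 it was -0.28 and just passed (adjusted P 0.0489 by edgeR), whereas without Fmr1-KO replicate 1 it was 0.09.

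Ifit3, from 34583531 to 34588731 on the plus strand, measured 5.73, 4.48 and 6.62 CPM in WT and 4.52, 6.21 and 5.09 CPM in Fmr1-KO. The groups overlapped over most of their range. Its log2 fold-change was -0.09 (95% interval -0.37 to 0.18; adjusted P 0.609 by edgeR), and -0.22 with Fmr1-KO replicate 2 left out. Counts of Ifit3 are uncertain because 31.6% of the 100-base windows of its transcript occur without a mismatch in its neighbour Ifit3b, a near-identical copy, and single-end reads of that length cannot be assigned there. For Ifit1 the same share was 3.29%, all in Ifit1bl2.

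Bst2 encodes tetherin, a membrane protein that holds budding viruses on the cell surface. It lies on the minus strand of chromosome 8 from 71534255 to 71537456 and had the smallest fold-change of the 9 genes. Its level was 22.1, 20.5 and 24.8 CPM in WT and 21.99, 23.9 and 20.9 CPM in Fmr1-KO. Its log2 fold-change was -0.02 (95% interval -0.16 to 0.13; adjusted P 0.881 by edgeR), and it stayed between -0.08 and 0.06 when single libraries were left out (-0.07 without Fmr1-KO replicate 2).

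Within each genotype most of the 9 genes shared the highest library, and in WT most also shared the lowest. In WT, replicate 2 was the lowest library for 8 of the 9 genes, the exception being Stat2, and replicate 3 was the highest for 7. Across all tested genes, WT replicate 2 was the lowest library in 35.6% and WT replicate 3 the highest in 33.2%. In Fmr1-KO, replicate 2 was the highest library for 9 of 9 genes, against 36.0% of all tested genes. The lowest was replicate 1 for 6 genes and replicate 3 for 3, against 32.0% and 31.5% of all tested genes. The median deviation of replicate 2 from the Fmr1-KO mean was 0.25 on the log2 scale over the 9 genes. Fmr1-KO replicates 1 and 3 deviated by -0.11 and -0.10, and WT replicates 1, 2 and 3 by 0.05, -0.13 and 0.15. The same extremes were seen, less completely, in the other effector genes tested. Fmr1-KO replicate 2 was the highest Fmr1-KO library for 34 of 51, and WT replicate 2 the lowest WT library for 36 of 51. These counts describe the libraries, and what set their ISG levels was not tested.

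**Figure D3:**
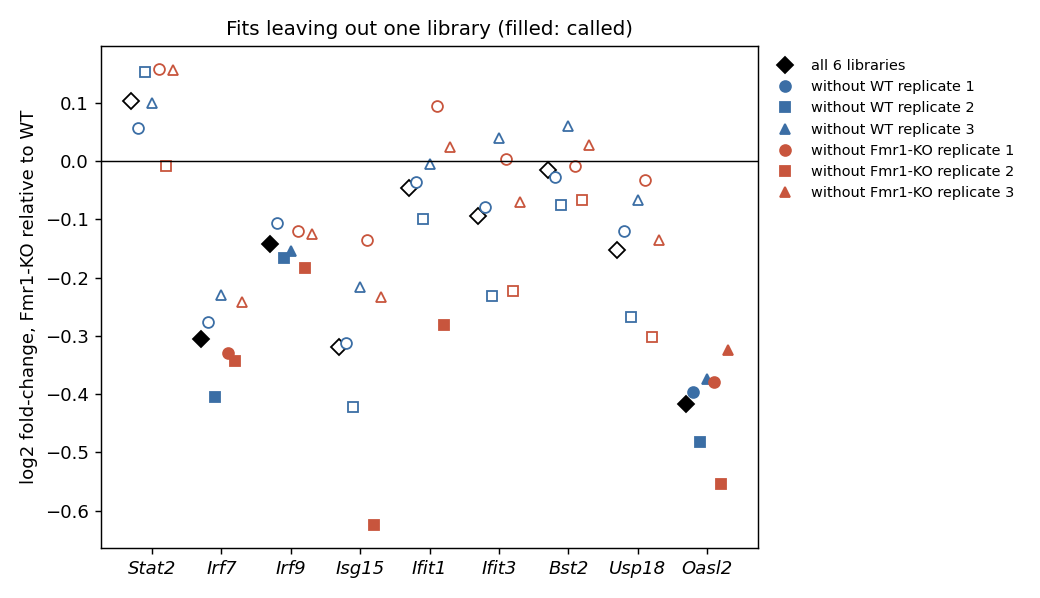
Log2 fold-change of the 9 genes (y axis) from all 6 libraries (black diamonds) and from fits that each leave out one library (blue, a WT library; red, an Fmr1-KO library); filled symbols are called. Oasl2 stays filled throughout. The red squares, without Fmr1-KO replicate 2, move down for all 9 genes, as leaving out the highest Fmr1-KO library requires.

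The rest of the pathway was described with gene lists by role. Of 106 tested pathway genes other than the 9, 41 were called lower (38.7%) and 10 higher (9.43%) by edgeR, beside the 21.9% and 20.7% of all tested genes. Their median log2 fold-change was -0.13. In 44 of the 106 the genotypes did not overlap with Fmr1-KO below, and in 10 with Fmr1-KO above, beside 26.3% and 25.4% of all tested genes. The 10 genes called higher became 6 without WT replicate 2 or without Fmr1-KO replicate 2, and DESeq2 called 5.

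Interferons themselves were almost undetected. Of 21 ligand genes, 14 had no count in any library, Ifnb1 among them, and the whole list summed to 2 to 4 counts per library. A count of 0 allows a level of up to 0.0862 to 0.0980 CPM per library (3 counts, counting error only). No ligand was tested.

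Among receptors and kinases, 4 of 8 tested genes were lower and 0 higher by edgeR, beside 21.9% and 20.7% of all tested genes. The numbers for this list were the same at an unadjusted P under 0.05 and under DESeq2. Ifnar1 did not differ detectably (log2 fold-change 0.01, 95% interval -0.06 to 0.08), while Ifnar2, its partner chain, was lower at 16.5 against 19.9 CPM (-0.27, adjusted P 0.00113 by edgeR). Il10rb, a chain shared with the receptors for interleukin-10 and interferon lambda, was lower (-0.38, adjusted P 0.00179 by edgeR). So were Ifngr2 (-0.13), a chain of the interferon gamma receptor, and the kinase gene Jak1 (-0.12). Ifngr1 (-0.08), Tyk2 (-0.10) and Jak2 (0.04) did not pass. All 8 log2 fold-changes of receptors and kinases lay within 0.4 of 0.

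The other STAT and IRF genes gave 4 lower and 1 higher of 8 tested by edgeR, beside 21.9% and 20.7% of all tested genes. For this list the numbers were 5 and 1 at an unadjusted P under 0.05 and 2 and 0 by DESeq2. Irf1 (-0.12) and Irf2 (-0.13) did not pass. Irf1 passed without Fmr1-KO replicate 1 (-0.21, adjusted P 0.0448 by edgeR). The clearest decrease was in Irf8, a factor required for microglia and other myeloid cells, from 7.09 to 4.28 CPM (-0.73, adjusted P 7.3e-06 by edgeR). Stat3 (-0.11) and Irf5 (-0.38) were also lower and Irf3 higher (0.18), but these 3 calls depended on the method and on single libraries. DESeq2 did not call Irf3 (adjusted P 0.0754) or Irf5 (0.0821). Scaling by library totals removed the calls of Stat3 (adjusted P 0.0598 by edgeR) and Irf5 (0.051). Stat3 was not called when replicate 3 of WT (-0.08) or of Fmr1-KO (-0.09) was left out. The call of Irf3 needed WT replicate 1 (0.17 when left out), WT replicate 3 (0.11) and Fmr1-KO replicate 1 (0.10). That of Irf5 needed WT replicate 3 (-0.18 when left out) and Fmr1-KO replicates 1 (-0.30) and 3 (-0.35).

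Of 15 nucleic acid sensing genes, 4 were lower (26.7%, near the 21.9% of all tested genes) and 0 higher by edgeR, with 5 and 1 at an unadjusted P under 0.05 and 3 and 0 by DESeq2. The genes were Zbp1 (-1.40, at 0.735 CPM in WT), a sensor of left-handed nucleic acid, Tlr7 (-1.05), an endosomal receptor for single-stranded RNA, Dhx58 (-0.50), which encodes the helicase LGP2, and the kinase gene Ikbke (-0.32). Tlr7 measured 9.70 CPM in WT and 4.70 CPM in Fmr1-KO (adjusted P 3.95e-08 by edgeR). Dhx58 lost its call without WT replicate 2 (-0.44) and also without Fmr1-KO replicate 3 (-0.40). The other 11 genes of the list did not pass.

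In the ISG15 conjugation list, Trim25, an E3 ligase, was lower (-0.28, adjusted P 0.000295 by edgeR), and the E1, E2 and E3 genes Uba7 (-0.05), Ube2l6 (0.10) and Herc6 (0.14) did not pass. No gene of this list was higher, by edgeR at an unadjusted P under 0.05 or by DESeq2. Of the negative regulators, Ptpn11 was lower (-0.14), and Samhd1 (0.13) and Pias1 (0.11) were called higher by edgeR but not by DESeq2 (adjusted P 0.0857 and 0.0886), nor by edgeR with no filter on low counts (0.0503 and 0.0582). Leaving out WT replicate 2 (0.12), WT replicate 3 (0.12), Fmr1-KO replicate 1 (0.09) or Fmr1-KO replicate 3 (0.13) removed the call of Samhd1. That of Pias1 was removed by leaving out WT replicate 1 (0.09), WT replicate 3 (0.09) or any Fmr1-KO replicate (0.12, 0.09 and 0.12 for replicates 1, 2 and 3).

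The other antiviral effectors held most of the lower calls, 24 of 51 tested (47.1%), with 5 higher (9.8%) by edgeR. The shares of all tested genes were 21.9% and 20.7%. At an unadjusted P under 0.05 edgeR gave 27 lower and 5 higher effectors, and DESeq2 called 18 and 4. The median log2 fold-change of the list was -0.27. Its summed level overlapped, at 754.6 to 818.6 CPM in WT and 722.0 to 782.4 CPM in Fmr1-KO. The largest decreases were those of Oasl1 (-1.03), a paralog of Oasl2, and of Ifi27l2a (-0.98), Ifitm1 (-0.87) and Ifi27 (-0.82). Ifi27 was the best measured of them, at 18.2 CPM in WT and 10.3 CPM in Fmr1-KO (adjusted P 2.27e-09 by edgeR), while Ifi27l2a and Ifitm1 were near 1 CPM or below. Ifitm1 lost its call when replicate 2 of WT (-0.72) or of Fmr1-KO (-0.70) was left out. Pml (0.22), Tor3a (0.22) and Trim56 (0.18) were among those called higher, the last not without WT replicate 2 (0.14) or Fmr1-KO replicate 2 (0.15). Genes of MHC class I presentation gave 3 lower (25%) and 2 higher (16.7%) of 12 tested, about the shares of all tested genes (21.9% and 20.7%). Psmb8 (-0.55) and Psmb10 (-0.35), subunits of the immunoproteasome, and B2m (-0.19), the MHC class I light chain, were lower, and Tapbp (0.16) and H2-Q4 (0.27) higher. H2-Q4 belongs to a family of near-identical genes and lost its call when replicate 1 or 2 of WT (0.24 and 0.15) or of Fmr1-KO (0.22 and 0.29) was left out. It was 0.42 without WT replicate 3.

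**Figure D4:**
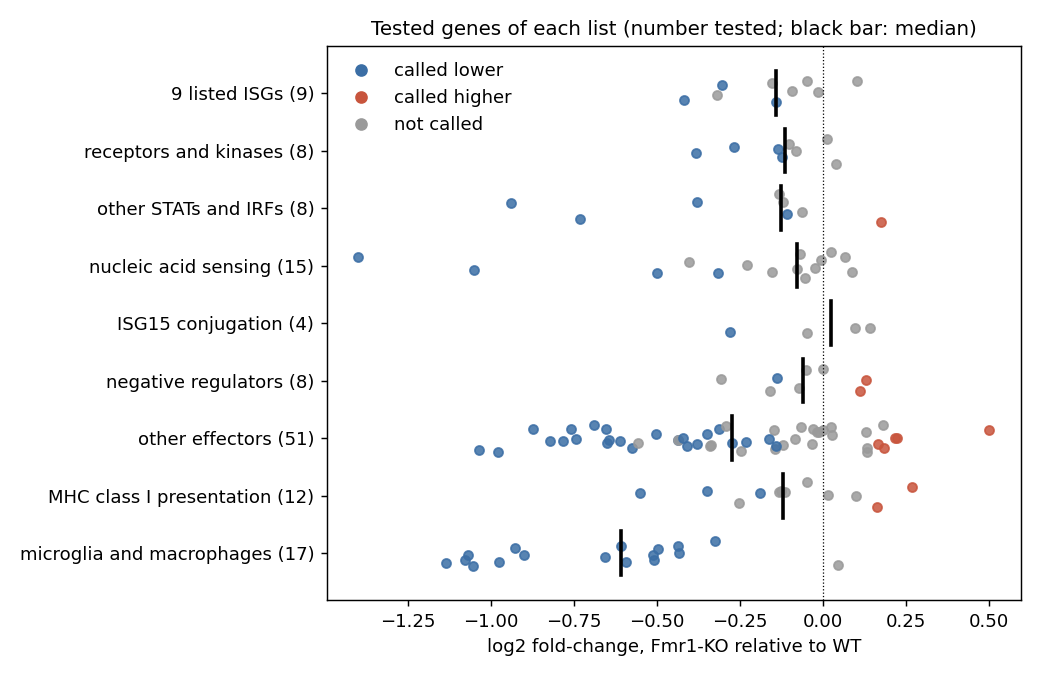
Log2 fold-change in Fmr1-KO relative to WT (x axis) of each tested gene, by list, with the number tested in brackets and the median as a black bar; blue is called lower, red called higher and grey not called. The 9 listed ISGs have a median of -0.14, other effectors -0.27 and microglia and macrophage markers -0.61.

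Markers of microglia and macrophages moved with genotype, as did those of other cell types. Of 18 microglial markers 17 were tested, and 16 were lower and 0 higher by edgeR, beside 21.9% and 20.7% of all tested genes. The numbers were 16 and 0 at an unadjusted P under 0.05 and 15 and 0 by DESeq2, with a median log2 fold-change of -0.61. The median was -0.73 for oligodendrocyte lineage, -0.68 for neuronal, -0.17 for fibroblast and meningeal and -0.05 for astrocyte markers. It was 0.21 for neural progenitor, 0.38 for endothelial and mural and 0.66 for proliferation markers. C1qb fell from 42.0 to 19.1 CPM (-1.13) and Csf1r, the receptor that microglia need to survive, from 41.9 to 29.4 CPM (-0.51). Tmem119 was not called (0.04), and Siglech was near 0. The summed level of the microglial markers was 590.5 to 635.8 CPM in WT and 366.8 to 387.3 CPM in Fmr1-KO, with no overlap. In bulk RNA, fewer cells of a type and less RNA per cell cannot be told apart. The summed level of the 9 ISGs overlapped, at 158.9 to 173.7 CPM in WT and 145.1 to 177.2 CPM in Fmr1-KO. Fmr1-KO replicate 2 was the highest Fmr1-KO library for the ISGs. Its microglial sum was 385.2 CPM, against 366.8 CPM in Fmr1-KO replicate 1 and 387.3 CPM in Fmr1-KO replicate 3. None of the 9 ISGs or other pathway genes is in a marker list. The part of microglia in the ISG values was not tested.

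**Figure D5:**
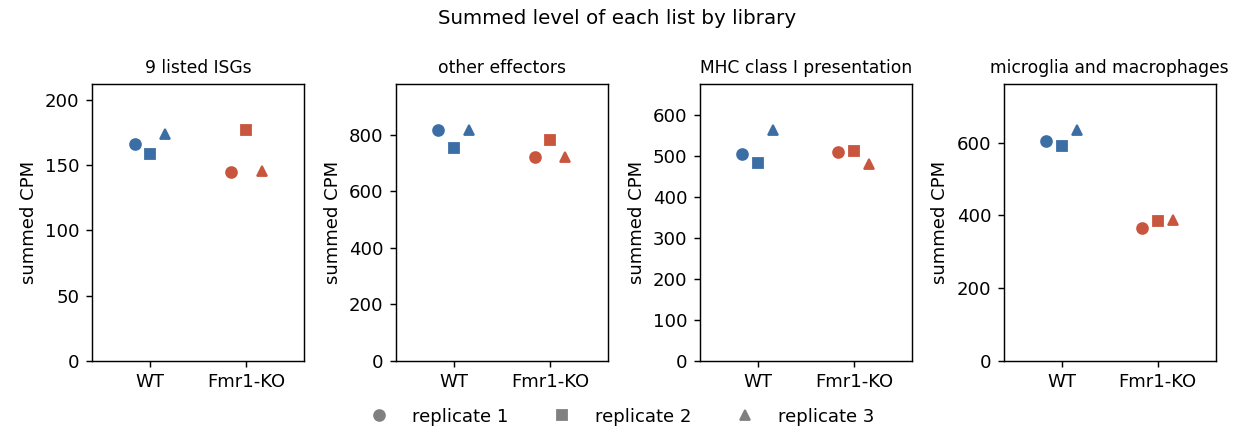
Summed CPM (y axes from 0, not divided by gene length) of 4 lists in each library, with symbols for replicate number. The microglia and macrophage sums separate the genotypes, whereas the sums of the 9 listed ISGs, of other effectors and of MHC class I presentation genes overlap.

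Stat2 had the most counts of the 9 genes, and its pattern was compared with that of 5528 other genes at least as abundant. The closest were Pnn, mt-Nd5 and Zfc3h1, whose log2 CPM, centred on the mean of the gene, differed from that of Stat2 by a root mean square of 0.0387, 0.0516 and 0.0518 over the 6 libraries. Their log2 fold-changes were 0.13, 0.12 and 0.18. Of these only Zfc3h1 passed (adjusted P 0.0416 by edgeR), and it failed when WT replicate 1 or 3 (0.14 each) or Fmr1-KO replicate 2 (0.07) was left out.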

How the data were processed

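The authors deposited raw counts per gene name for 6 stranded poly(A) libraries. According to the study's methods, FastP trimmed the single-end reads, STAR mapped them to GRCm38, and featureCounts assigned reverse-stranded reads to the exons of each gene name; the submitters' processing notes name STAR 2.7.6a and Subread 2.0.1. Such counts do not resolve near-identical copies. Replicate pairs differed by more than counting noise (chi-square per gene 2.19 to 3.73), so no library appeared to be deposited more than once, which does not show that they came from separate cultures.

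Counts were filtered with filterByExpr, TMM-normalized and tested with edgeR 4.0.16 (R 4.3.3; glmQLFit, glmQLFTest, 2-sided, genotype only), with an adjusted P under 0.05 called. SE is the absolute log2 fold-change divided by the square root of F. The 95% intervals use the total degrees of freedom of the test, which add prior degrees of freedom shared across genes to the residual ones. CPM are TMM-scaled. The functions were tested on simulated data. Alternatives were DESeq2 1.42.0 (genes with an undefined adjusted P are not among its calls), RLE, upper-quartile and no scaling factors, no filter, a filter at a mean of 10 counts, a replicate block and leaving out each library. GENCODE M21 gave coordinates and exon lengths, an earlier release than the study names, and RefSeq gave promoters.

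The genes and lists were chosen with earlier results of these data known. Genes named are the 9, Fmr1, all tested receptors, kinases, STATs, IRFs and ISG15 conjugation genes, and up to 4 called genes per direction in each other list by size of change. Xist, Rnf31, Ifit3b, Ifit1bl2, Ifnb1 and the microglial markers shown were chosen after their values were seen. Some genes that this rule names are not reported here, though they stay in the counts. No gene set was tested for enrichment.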

Additional observations from a re-analysis of the deposited data

How the results depend on the processing

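The number of the 9 genes called lower was 2 or 3 with the alternatives in scaling, test and filter, except for 4 with no filter, and ran from 1 to 5 when single libraries were left out. No alternative called any of the 9 higher. Other pathway genes called higher were 5 under DESeq2 and 6 to 9 with a library left out, against 10. Counts of genes called over the whole table and of microglial markers stayed within 1.5 times their values.

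Among 688 values of the genes that the naming rule takes, 602 kept their direction and their side of the threshold, 58 lost their call, 16 gained one and 12 changed sign; the cause was not tested. Signs changed in genes that were not called. With single libraries left out, Stat2 ran from -0.00915 to 0.158, Ifit1 from -0.282 to 0.0946, Ifit3 from -0.232 to 0.0397, Bst2 from -0.0763 to 0.0594, Ifnar1 from -0.00408 to 0.0258, Uba7 from -0.146 to 0.110 and Ube2l6 from -0.0180 to 0.195. Bst2 was 0.0124 with library totals alone.

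Replicate numbers did not pair the libraries: same-numbered deviations from the genotype means correlated at -0.0289, 0.0323 and -0.0147. With a replicate block, 3 of the 9 genes were called lower and 0 higher, and among the genes named here no call was lost, while Pnn and mt-Nd5 gained one. With 110 to 257 counts per library, Isg15, Ifit1 and Ifit3 had the widest intervals of the 9 genes.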
